A study of Mus musculus with 6 samples.

Results

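The multisynthetase complex is the cytosolic assembly that holds a set of aminoacyl-tRNA synthetases together on small scaffold proteins. Its 10 genes considered here were chosen by name: the synthetase genes Eprs, Lars, Iars, Qars, Rars, Kars, Dars and Mars and the scaffold genes Aimp1 and Aimp2, out of 39177 identifiers in the count files. All 10 were found by their mouse Ensembl identifiers. The family was proposed with the difference between knockout and control hearts already known, so the values of that contrast are given as a description and carry no p-value. RNA of crude heart mitochondria was sequenced from 3 control mice and 3 knockout mice of strain C57BL/6N, aged 3 to 4 weeks, with 1 library per mouse. Both groups carried Polrmt alleles with exon 3 between loxP sites (L/L), the controls without cre and the knockouts with cre driven by the muscle creatine kinase promoter (L/L, cre), and the labels give the genotypes as Polrmt +/+ and Polrmt -/-. That promoter is active in striated muscle cells, so other cells of the heart keep an intact gene. Polrmt encodes the RNA polymerase that transcribes mtDNA.

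Each synthetase joins 1 amino acid to its tRNAs, the step that fixes the meaning of the codon, and the Eprs protein joins both glutamate and proline. The scaffolds have no charging activity of their own and hold the enzymes in place. Genes of several cytosolic synthetases are known targets of ATF4, the transcription factor of the integrated stress response, which binds C/EBP-ATF response elements.

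The libraries held between 1062030 and 3234729 gene-assigned counts, of which mtDNA transcripts took 79.5% to 83.5% in controls and 21.1% to 25.8% in knockouts. Outside mtDNA and 5 nuclear loci that collect most other reads, 76949 to 109351 counts per control library and 126339 to 164004 per knockout library remained. A gene with 3 counts therefore lay between 1.14 and 2.51 CPM (counts scaled to a common library size) by library. CPM values were scaled by the trimmed mean of M-values (TMM), which sets the bulk of nuclear transcripts to no change. Polrmt itself (ENSMUSG00000020329) had 3, 2 and 1 counts in controls and 2, 5 and 1 in knockouts, and gene-level counts do not resolve the deleted exon. The heart muscle marker Myh6 had 3008 to 7445 counts in every library. The RNA came from a crude mitochondrial preparation, so a level is that of a cytosolic mRNA within this preparation. Fewer cells of a type and less RNA per cell cannot be told apart in such bulk samples.

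Promoter stretches of 3 members are printed because these genes had the higher counts in the knockouts described below and their start regions could be searched for an ATF4-type element. RefSeq promoter windows (build GRCm38.p6, 250 bases before to 50 after the start) were matched for 8 of the 10 members, and Lars and Rars had none. The letters TGATGNAA, a core of the C/EBP-ATF response element, and CACGTG, the E-box, were searched on both strands. Capitals mark a match, and bases are counted from the RefSeq start, with no base 0.
Iars, bases -12 to 18 (chr13:49682118-49682147, plus strand): gagcctggcactgtcagtaTTGCATCAcct
Iars, bases -110 to -31 (chr13:49682020-49682099, plus strand): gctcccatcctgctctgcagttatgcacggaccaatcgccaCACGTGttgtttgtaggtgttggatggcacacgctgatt
Eprs, bases -110 to -31 (chr1:185362934-185363013, plus strand): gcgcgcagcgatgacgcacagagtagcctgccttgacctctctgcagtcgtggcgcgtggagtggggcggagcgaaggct
Mars, bases -110 to -31 (chr10:127311817-127311896, minus strand): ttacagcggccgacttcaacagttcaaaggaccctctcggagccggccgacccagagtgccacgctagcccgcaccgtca
The C/EBP-ATF core was found in 1 of the 8 member genes, Iars, on the reverse strand at bases 8 to 15, just past the RefSeq start. The E-box was also found in Iars alone, at bases -69 to -64. Among all 27025 genes with a window, 4.51% held the core and 8.09% the E-box, and both sets of letters overlapped each other in 3 of 32851 windows. Among the free cytosolic synthetases, which stand outside the complex, 4 of 8 genes with a window held the core (Aars, Gars, Tars and Yars). It was held by 8 of 25 in a list of amino acid response genes and by 0 of 14 mitochondrial synthetases. The amino acid response list is of genes that act with ATF4, chosen with earlier results known, so its share is no independent result. A link between the core and the levels was not tested. A match is a run of letters and not a shown binding site, and for the other members only these windows were searched.

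Of the 10 members, 4 rose in the knockouts, namely Eprs, Lars, Iars and Mars. The other 6, which were Qars, Rars, Kars, Dars, Aimp1 and Aimp2, gave no call in either direction. A call is an edgeR quasi-likelihood adjusted p under 0.05 over all tested genes. By the same rule 6.69% of the 3346 tested nuclear genes were higher and 6.31% lower, and nothing is read from the members' count because this contrast was in view when the family was chosen. Only 7 members passed the low-count filter and were tested. All 7 did so through the knockout libraries, since the filter is set on total library size and asked for 14.0 to 15.8 counts in a control and 5.19 to 5.997 in a knockout. With no such filter all 10 members were tested and 4 were higher, 0 were lower and 6 did not pass, with 1.38% of 14207 nuclear genes higher and 0.683% lower. In this fit with no filter the median log2 fold change was 0.74 over the 10 members and 0.06 over all nuclear genes. An alternative added after the data were seen set the filter on nuclear library sizes. There only Eprs, Lars, Iars and Mars were tested and all 4 were higher, beside 9.07% of nuclear genes higher and 7.18% lower. The other 6 members fell under the filter. Lars, Iars and Mars again passed only through their knockout counts, so nothing is read from this count either.

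**Figure D1:**
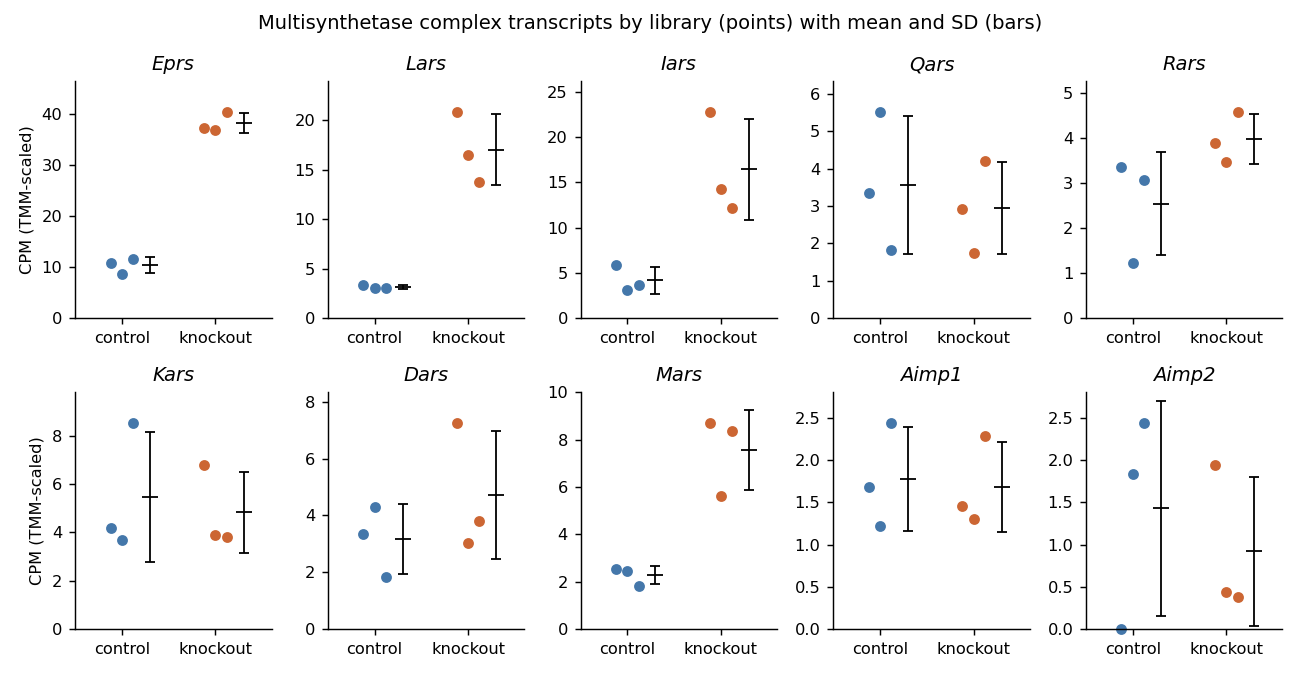
TMM-scaled CPM of the 10 complex members in each of the 6 libraries, with one panel and one linear axis per gene. Points are libraries, and the bar beside them gives mean and SD of 3 libraries. Eprs, Lars, Iars and Mars show a wide gap between the groups, Rars a narrow one, and the other 5 genes overlap.

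Eprs, the glutamyl-prolyl-tRNA synthetase (ENSMUSG00000026615, chromosome 1, 185363044 to 185428360, GRCm38), was the most abundant member by counts. It had 13, 14 and 19 counts in the controls and 77, 85 and 106 in the knockouts. Scaled, the controls lay at 10.9, 8.57 and 11.6 CPM and the knockouts at 37.3, 36.9 and 40.4 CPM. The knockout libraries lay close together and all stood above every control. The means were 10.4 ± 1.59 and 38.2 ± 1.93 CPM (SD, n = 3 each), a log2 fold change of 1.88 ± 0.22 SE or 3.69-fold.

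Lars, the leucyl-tRNA synthetase (ENSMUSG00000024493, chromosome 18, 42202298 to 42262194), showed the highest fold change of the members. The controls held 4, 5 and 5 Lars counts and the knockouts 43, 38 and 36. The controls were nearly identical at 3.35, 3.06 and 3.05 CPM, whereas the knockouts spread over 20.8, 16.5 and 13.7 CPM with knockout 1 on top. The groups did not overlap. The log2 fold change was 2.40 ± 0.34 SE, which is 5.26-fold.

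Iars, the isoleucyl-tRNA synthetase whose start region is printed above (ENSMUSG00000037851, chromosome 13, 49682100 to 49734267), had 7, 5 and 6 counts in controls and 47, 33 and 32 in knockouts. In CPM the controls were at 5.87, 3.06 and 3.67 and the knockouts at 22.8, 14.3 and 12.2. As with Lars, knockout 1 was the highest library and the groups stood apart. The log2 fold change was 1.98 ± 0.33 SE, and it was 1.69 without knockout 1. The snoRNA genes within the Iars introns had at most 1 count in any library.

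Mars, the methionyl-tRNA synthetase that also charges the initiator tRNA (ENSMUSG00000040354, chromosome 10, 127296221 to 127311786), was lower in abundance. It had 3, 4 and 3 counts in controls and 18, 13 and 22 in knockouts. These correspond to 2.51, 2.45 and 1.83 CPM against 8.72, 5.64 and 8.39 CPM. Every knockout exceeded every control. The log2 fold change was 1.73 ± 0.45 SE. DESeq2 gave Mars a log2 fold change of 1.76 but did not call it, and so called 3 members higher and 0 lower, with 2.66% of tested nuclear genes higher and 1.67% lower. The last 68 bases of Mars overlap the stress gene Ddit3 on the opposite strand, and Ddit3 had 2, 1 and 1 counts in controls and 7, 4 and 7 in knockouts. Without a stated strand setting, reads of this stretch cannot be told apart.

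None of the other 4 synthetases of the complex gave a call. Qars, the glutaminyl-tRNA synthetase (ENSMUSG00000032604, chromosome 9, 108507706 to 108515941), had 4, 9 and 3 counts in controls and 6, 4 and 11 in knockouts. Its CPM values of 3.35, 5.51 and 1.83 in controls overlapped the 2.91, 1.73 and 4.19 of the knockouts. Qars did not pass the filter, and the ratio of its pooled counts over effective library size was 0.837 (95% Poisson interval 0.416 to 1.72, covering counting error only). Kars, the lysyl-tRNA synthetase, whose gene supplies both the cytosolic and the mitochondrial enzyme (ENSMUSG00000031948, chromosome 8, 111993443 to 112011323), had 5, 6 and 14 counts against 14, 9 and 10. Control 3 was the highest library at 8.55 CPM, the other controls were at 4.19 and 3.67 CPM and the knockouts at 6.78, 3.90 and 3.81 CPM. The log2 fold change of Kars was -0.24 ± 0.40 SE and turned to 0.27 without control 3. Gene counts do not separate the transcripts of the 2 Kars enzymes.

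Rars, the arginyl-tRNA synthetase (ENSMUSG00000018848, chromosome 11, 35808381 to 35834506), had 4, 2 and 5 counts in controls and 8, 8 and 12 in knockouts. The values of 3.35, 1.22 and 3.05 CPM lay just under the 3.88, 3.47 and 4.57 CPM of the knockouts. The groups did not overlap, yet the log2 fold change of 0.69 ± 0.46 SE did not pass the threshold. Non-overlapping CPM with knockouts on top was found in 5 members (Eprs, Lars, Iars, Rars and Mars), against 15.2% of tested nuclear genes. Dars, the aspartyl-tRNA synthetase (ENSMUSG00000026356, chromosome 1, 128363707 to 128417368), had 4, 7 and 3 counts against 15, 7 and 10. Knockout 1 was alone at 7.27 CPM, while the other knockouts, at 3.03 and 3.81 CPM, lay within the control values of 3.35, 4.29 and 1.83 CPM. Its log2 fold change was 0.54 ± 0.44 SE, and 0.13 without knockout 1.

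The scaffold transcripts were scarce in both groups. Aimp1, which binds the arginyl and glutaminyl enzymes (ENSMUSG00000028029, chromosome 3, 132660499 to 132684370), had 2, 2 and 4 counts in controls and 3, 3 and 6 in knockouts. The corresponding 1.68, 1.22 and 2.44 CPM and 1.45, 1.301 and 2.29 CPM overlapped throughout, with a pooled ratio of 0.957 (95% Poisson interval 0.360 to 2.70). Aimp2, the core scaffold of the complex (ENSMUSG00000029610, chromosome 5, 143902704 to 143909847), had 0, 3 and 4 counts in controls and 4, 1 and 1 in knockouts. The 0 of control 1 allows up to 2.51 CPM, above every other Aimp2 value, so no difference was detectable at this depth (pooled ratio 0.547, 95% Poisson interval 0.152 to 1.90). Both scaffold genes share exon sequence with a neighbour on the opposite strand, Aimp1 with Tbck over up to 163 bases and Aimp2 with Eif2ak1 over up to 487 bases. The third scaffold gene, Eef1e1, which the member list does not hold, had 2, 0 and 0 counts in controls and 2, 3 and 5 in knockouts (ratio 3.19, 95% Poisson interval 0.680 to 29.9).

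**Figure D2:**
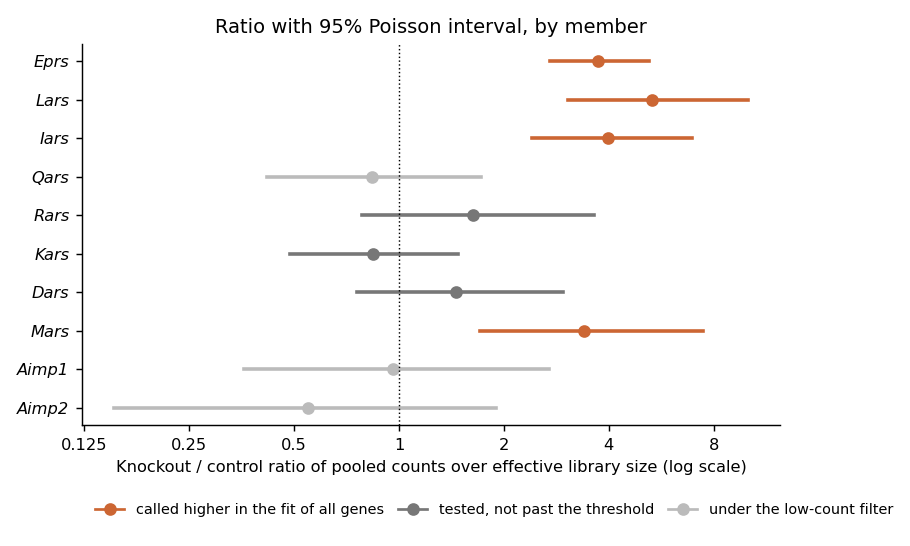
Ratio of knockout to control for each member, from pooled counts over effective library size, on a log axis. Lines are 95% Poisson intervals that cover counting error only. The intervals of Qars (up to 1.72) and Kars (up to 1.48) end below the start of those of Eprs (2.71), Lars (3.05) and Iars (2.40), while those of Rars and Dars reach 3.62 and 2.96.

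The pooled ratios differed among the members, and some of their intervals did not overlap. These intervals cover counting error and leave out the spread between mice. The genes set side by side here were picked after their values were seen, and a difference between members was not tested. The pooled ratio of Eprs was 3.72 (95% Poisson interval 2.71 to 5.201) and that of Kars 0.842 (0.486 to 1.48), which do not overlap. The interval of Mars began at 1.70, under the upper end of that of Qars. Rars and Dars had intervals that held 1. That of Rars also reached into those of all 4 genes that rose, and that of Dars into those of Eprs, Iars and Mars but not of Lars. For Aimp1 the interval ended at 2.70, just under the start of that of Eprs and above that of Iars.

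The make-up of the complex transcripts, a share within each library that needs no scaling between libraries, differed between the groups. The 10 members together held 46, 57 and 66 counts in controls and 235, 201 and 246 in knockouts. Eprs took 27.2% ± 2.30 of these counts in controls and 39.4% ± 5.74 in the knockouts (SD, n = 3 each). Lars took 8.35% ± 0.670 and 17.3% ± 2.31, and no knockout share of either gene fell within the control range. The share of Kars went from 14.2% ± 6.07 to 4.83% ± 0.995, and that of Qars from 9.68% ± 5.69 to 3.00% ± 1.301. Aimp1 went from 4.64% ± 1.301 to 1.74% ± 0.618. Shares are parts of a whole, so a member whose level stays flat loses share when others rise. These smaller shares therefore show no fall in level, and none of the 3 genes gave a call. Grouping genes by what was seen in these libraries, the counts of Eprs, Lars, Iars and Mars were 1.59, 1.17 and 1.32 times those of Qars, Rars, Kars and Dars in the controls and 4.30, 6.04 and 4.56 times in the knockouts. The higher ratio in the knockouts follows from that grouping and only restates the calls.

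**Figure D3:**
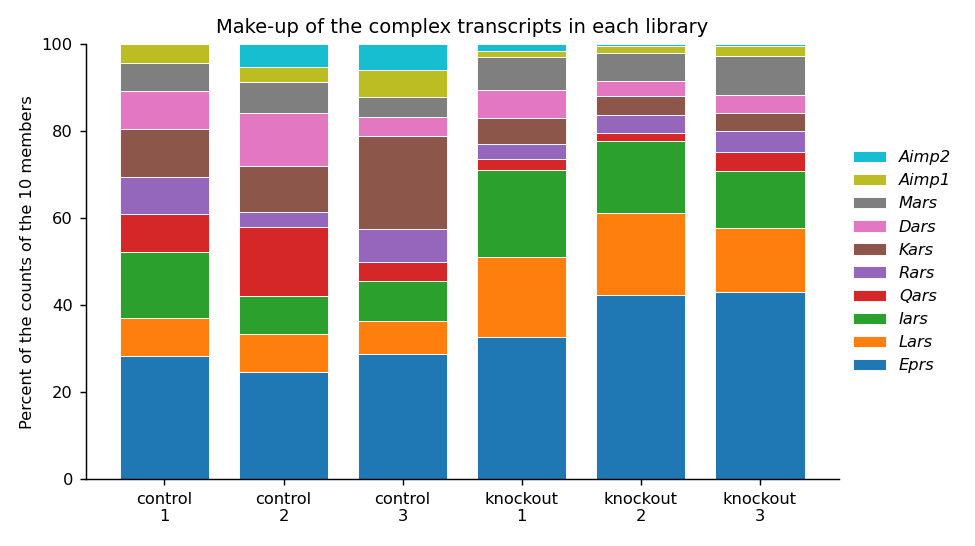
Share of each member in the counts of the 10 members, as a stacked bar for each of the 6 libraries (percent, linear axis from 0). Eprs and Lars take larger parts of every knockout bar than of any control bar, and Kars takes a smaller part.

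Per kilobase of the transcript with the longest coding sequence, the controls showed no member clearly above its neighbour. Kars led with 2.50 ± 1.22 CPM per kb, followed by Eprs with 2.11 ± 0.324 and Aimp1 with 1.58 ± 0.547, and the lowest were Iars with 0.948 ± 0.334, Lars with 0.793 ± 0.0427 and Mars with 0.765 ± 0.127 (n = 3 libraries, SD). By this length, Iars, Lars and Mars, at the bottom in controls, were among the 4 at the top in knockouts. There Eprs stood at 7.78 ± 0.394 CPM per kb, clear of Lars at 4.27 ± 0.901, which was followed by Iars at 3.71 ± 1.26, Mars at 2.56 ± 0.571, Kars at 2.21 ± 0.772 and Dars at 2.16 ± 1.04. From Lars to Dars, neighbouring means differed by less than the larger of their SDs. At the lower end of the knockout order were Rars (1.88 ± 0.265), Aimp1 (1.49 ± 0.471), Qars (1.05 ± 0.439) and Aimp2 (0.774 ± 0.746 CPM per kb). The place of Eprs depends on its length: with all annotated exons merged (18102 in place of 4906 bases) it fell to 2.11 CPM per kb in knockouts, under Lars at 3.17, Iars at 3.12 and Mars at 2.21. The control order depends on length as well. With merged exons Iars stood at 0.796 CPM per kb in controls, under only Kars at 1.23 and Aimp2 at 0.863. The lowest in controls were then Eprs at 0.572, Qars at 0.542 and Aimp1 at 0.318.

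Summed over the 10 members, the level was 38.6, 34.9 and 40.3 CPM in controls and 113.8, 87.1 and 93.8 CPM in knockouts. The lowest knockout was above the highest control, and the means were 37.9 ± 2.77 and 98.3 ± 13.9 CPM (SD, n = 3 each), a ratio of 2.59. Without Eprs the sum went from 27.6 ± 1.20 to 60.1 ± 14.3 CPM. The sum over Qars, Rars, Kars and Dars was 14.7 ± 0.515 CPM in controls and 16.5 ± 4.35 in knockouts.

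**Figure D4:**
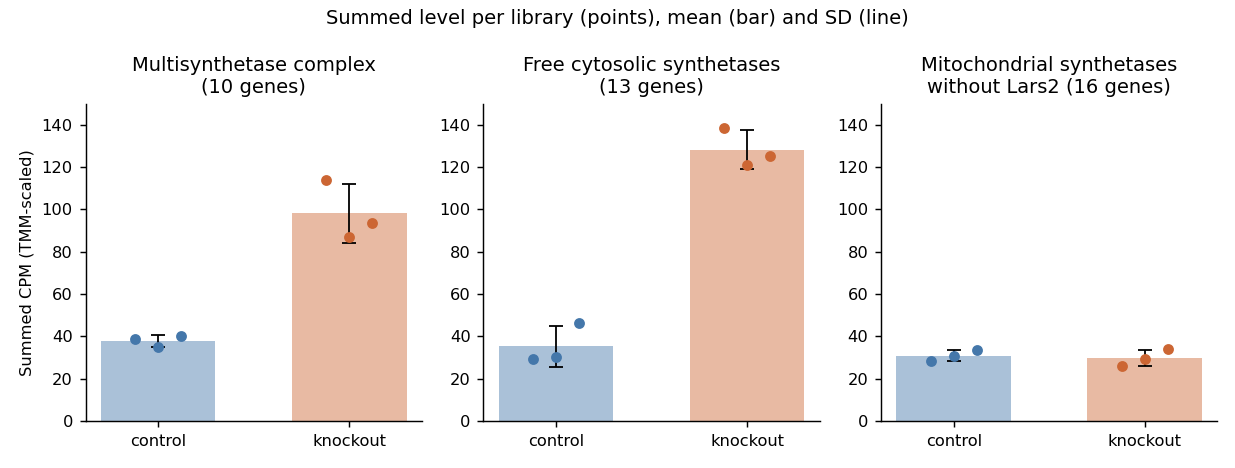
Summed TMM-scaled CPM per library for the 10 complex members, the 13 free cytosolic synthetases and the 16 mitochondrial synthetases other than Lars2, on a common linear axis from 0. Points are libraries, bars are means and lines SD (n = 3 each). The first 2 sums are higher in all knockouts, and the third overlaps between the groups.

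The free cytosolic synthetases, the enzymes that work outside the complex, gave a summed level of 35.3 ± 9.69 CPM in controls and 128.2 ± 9.21 CPM in the knockouts (SD, n = 3 each), a ratio of 3.64. Of 13 such genes 11 were tested, 9 were higher and 0 lower, beside 6.69% higher and 6.31% lower over all tested nuclear genes. None of the 11 reached the low-count filter in every control, so they were tested through their knockout counts. The free synthetases with the smallest adjusted p were Sars, with 12 control and 129 knockout counts in all, Aars with 13 and 129, Gars with 20 and 211, and Yars with 7 and 56. Over effective library size these gave ratios of 6.86, 6.33, 6.73 and 5.10. The ratio of complex counts to free synthetase counts, again free of scaling, was 1.31, 1.16 and 0.868 in controls and 0.822, 0.720 and 0.750 in knockouts. All knockouts lay under all controls, control 3 by a small margin. The mitochondrial synthetases without Lars2, one of the 5 loci that collect most nuclear reads, summed to 30.9 ± 2.57 CPM in controls and 29.7 ± 3.92 in knockouts. With Lars2 included, 3 of 17 genes were tested (Iars2, Vars2 and Lars2 itself), and 0 were called by edgeR. For Iars2, the mitochondrial isoleucyl enzyme, the log2 fold change was -0.24 ± 0.30 SE. Among those too low to be tested, Mars2 had 4 and 12 counts and Rars2 3 and 9 counts in the summed controls and knockouts. Over effective library size the ratio was 1.91 for each, with 95% Poisson intervals that held 1.

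Genes that act with ATF4 in the amino acid response were counted from a list chosen with earlier results known. Of 27 listed genes 15 were tested, 11 of them higher and 0 lower, beside 6.69% higher and 6.31% lower over all tested nuclear genes. All 11 passed the low-count filter only through their knockout counts. Asns, the asparagine synthetase, had 0 counts in every control and 79 in the knockouts together and was at least 16.8-fold higher, and Mthfd2, of mitochondrial one-carbon metabolism, was at least 14.3-fold higher, both against 3 counts over the control group. By the same rule the pseudokinase gene Trib3 was at least 7.23-fold higher. Slc7a5, the transporter that brings leucine and other large neutral amino acids into the cell, had 5 counts in all controls together and 72 in all knockouts. Its ratio over effective library size was 9.19. Atf4 had 3, 3 and 5 counts in controls and 30, 12 and 25 in knockouts. Of the 9 genes for the eIF2 subunits, their kinases and phosphatase regulators, 2 were tested and 1, Eif2s2, was higher (log2 fold change 1.22 ± 0.39 SE). Eif2s2 also passed the low-count filter only through its knockout counts. The kinase genes Eif2ak1, Eif2ak2, Eif2ak3 and Eif2ak4 had 13, 10, 8 and 7 counts in the summed controls and 18, 6, 18 and 4 in the summed knockouts. Over effective library size, which was larger in the knockouts, their ratios were 0.884, 0.383, 1.44 and 0.365. Each of their 95% Poisson intervals held 1.

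In a list of elongation factor 1 genes, Xpot and Vars, 2 of 7 tested genes were higher and 0 lower. Over all tested nuclear genes 6.69% were higher and 6.31% lower. Vars was also counted among the free cytosolic synthetases. Eef1a1, the elongation factor that delivers aminoacyl-tRNA to the ribosome, rose 2.05-fold (log2 1.04 ± 0.15 SE), from 59.1 to 120.05 mean CPM, while Eef1a2, its muscle form, was at -0.05 ± 0.16 SE. Xpot, the exporter of tRNA from the nucleus, was the other gene past the threshold, by a very small margin (0.99 ± 0.36 SE). It had 7, 13 and 2 counts in controls and passed the low-count filter only through its knockout counts. The Xpot groups overlapped, with control 2 at 7.96 CPM and knockout 2 at 7.80 CPM.

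**Figure D5:**
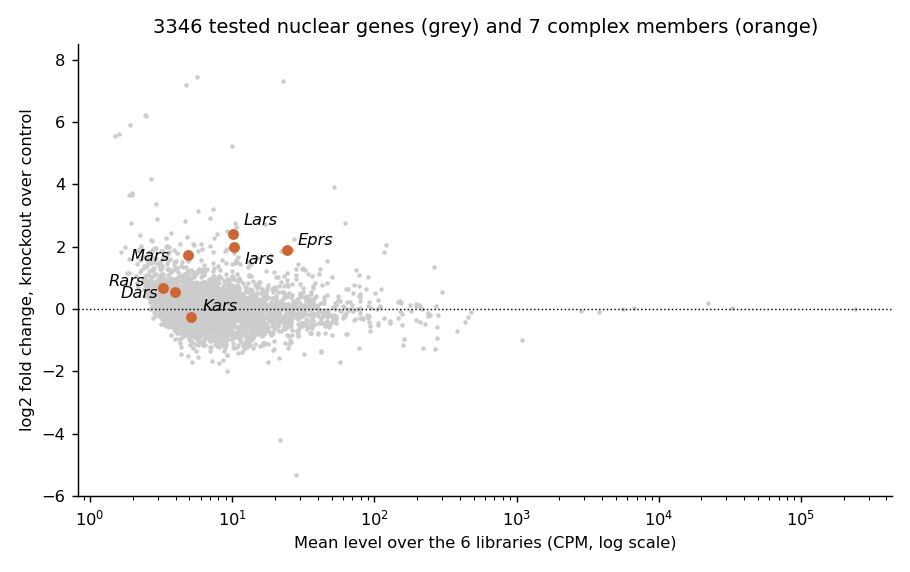
log2 fold change of knockout over control against the mean CPM over the 6 libraries (log axis) for the 3346 tested nuclear genes in grey and the 7 tested members in orange. Lars, Iars, Eprs and Mars lie between 1.73 and 2.40, and Rars, Dars and Kars between -0.24 and 0.69.

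Cell type markers were read beside these values. Their calls stand beside 6.69% of tested nuclear genes higher and 6.31% lower. The summed level of 8 heart muscle markers was 4160 to 5025 CPM in controls and 3693 to 4114 CPM in knockouts, with 1 higher and 4 lower of 8. That of 7 fibroblast markers was 692 to 739 and 578 to 655 CPM, with 2 of 7 lower, and that of 6 macrophage markers was 30.6 to 46.1 and 12.6 to 18.3 CPM, with 2 of 2 tested lower. Endothelial markers stood at 100.2 to 121.5 and 79.9 to 94.1 CPM with 1 of 6 lower, and smooth muscle and pericyte markers at 119.1 to 139.1 and 65.4 to 99.7 CPM with 2 of 4 tested lower. The red cell markers overlapped at 56.3 to 123.4 and 57.7 to 106.3 CPM. All of these sums except that of the red cell markers were lower in every knockout than in any control, and the part of cell make-up in the members' values was not tested.

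The authors' deposited table lists 9 of the 10 members, all but Aimp2. In the authors' deposited table the log2 fold change is 2.01 for Eprs, 2.53 for Lars, 2.09 for Iars and 1.82 for Mars, each with a false discovery rate under 0.05, as it has for 3.09% of its nuclear genes in the upward direction and 2.03% in the downward direction. The remaining values in the authors' deposited table are 0.81 for Rars, 0.65 for Dars, 0.04 for Aimp1, -0.14 for Kars and -0.17 for Qars, none of them under that rate.

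The genes whose level over the 6 libraries was most like the summed level of the members were Enah, Hif1a, Pfkp, Hspa8 and Ccnd2, out of 1611 genes compared. Pearson's r of log2 CPM was between 0.988 and 0.993 over 6 libraries, which share their depth and fall into the control and knockout groups, so that r mostly restates the difference between them and is given as a description. Enah had 5.03, 5.51 and 6.11 CPM in controls and 18.9, 14.7 and 14.5 CPM in knockouts. As in Lars and Iars, knockout 1 was its highest library. Hspa8, a cytosolic chaperone, was at 30.0 to 32.7 CPM in controls and 51.1 to 55.7 CPM in knockouts.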

How the data were processed

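The authors deposited raw counts per gene as whole numbers. Build GRCm38 is named in the submitters' processing notes, together with edgeR 3.11.2, R 3.2.0, HISAT 0.1.6 and featureCounts 1.3.5-p4. Neither strand setting nor annotation release was stated. From the authors' deposited table the log2 fold change and the p-value adjusted to a false discovery rate were used. Per the file headers it also holds a score, the likelihood ratio. Rounded normalised values were not used here.

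Identifiers were named from GENCODE M21 (37656 of 39142 nuclear identifiers matched). The 2 groups entered the quasi-likelihood test of edgeR 4.0.16 (R 4.3.3, robust, no covariate), with TMM scaling over 3363 genes passing filterByExpr (minimum count 10, minimum total 15) and Benjamini-Hochberg adjustment over all tested genes, threshold 0.05, 2-sided. The SE of a fold change is that implied by its F statistic. Poisson intervals are exact and conditional on the total count. DESeq2 1.42.0 was an alternative. On simulated counts for this comparison, over 3363 genes, 100% of genes raised 4-fold, 54% of those raised 2-fold, 80% of those lowered 4-fold and 32% of those lowered 2-fold were recovered. The simulated base level came from the counts of both groups together. Genes with as few control counts as the members may therefore be recovered less often. Members and lists were chosen with earlier results of these data known. The text names all 10 members, Eef1e1, up to 4 called genes of each other list by smallest adjusted p, and the 5 genes most like the summed members; other names, such as the mitochondrial synthetases, Atf4 and the eIF2 kinases, were chosen after their values were seen. Levels per length used the transcript with the longest coding sequence.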

Additional observations from a re-analysis of the deposited data

How the results depend on the processing

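Counts of calls were compared over 14 alternatives. The number of members called higher was 4 with edgeR in each of them except one, the fit without any scaling factor, which called 7, and DESeq2 called 3. Apart from that setting, Eprs lay between 1.75 and 2.01, Lars between 2.23 and 2.55, Iars between 1.69 and 2.24 and Mars between 1.59 and 1.88 on the log2 scale. With no scaling, 3324 nuclear genes were higher and 2 lower, the median nuclear log2 fold change moved to 2.06, the summed level had a log2 ratio of 3.44 in place of 1.37, and Kars turned to 1.81. With 1 library left out, Kars ranged from -0.53 to 0.27, the latter without control 3. The summed level without Eprs had a log2 ratio of 1.12. Nuclear genes called lower were 97 with no low-count filter and 129 among genes with at least 1 count in every library, in place of 211, and calls higher then made up 66.9% and 61.7% of all calls, against 51.5%. DESeq2 called 89 higher and 56 lower (61.4% higher), and without a scaling factor the share was 99.9%.

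With 1 library left out, nuclear genes called higher ranged from 140 to 181 and lower from 118 to 154. Deviations from the group means showed r of -0.02, 0.02 and 0.02 between same-numbered libraries. Counting error at this depth can hide a shared deviation, so these values cannot decide whether same-numbered libraries belong together. With the replicate block 212 nuclear genes were higher and 200 lower, 4 members were higher and 0 lower, and the median log2 ratio of the summed level over same-numbered pairs was 1.32. Depth limits Qars, Aimp1 and Aimp2, which had at most 11, 6 and 4 counts in any library.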
